A study of Homo sapiens with 8 samples.

Results

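MOLM-13 is a human acute myeloid leukemia cell line that carries the KMT2A-AF9 fusion. The data described here compare MOLM-13 cells given VTP50469, an inhibitor of Menin, together with WM119, the label spelling of the KAT6A inhibitor WM1119, with MOLM-13 cells given VTP50469 without WM119. All genes of the deposited RNA-seq table entered this comparison, which asks what KAT6A inhibition adds in cells that are already under Menin inhibition. It uses 4 of the 8 libraries of the series, 2 of VTP50469+WM119 and 2 of VTP50469. The remaining 4 libraries are 2 of WM119 alone and 2 of DMSO, the vehicle, and they show the same addition in cells without VTP50469. All groups share the one cell line, whose fusion every library therefore carries. Neither the dose nor the treatment time of any group is stated in the labels or the methods. It is also not stated whether replicates were grown apart, so a p-value below measures only the spread between these libraries, which may be technical.

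Menin is the adaptor that holds KMT2A and its leukemic fusions on chromatin, where they keep genes of the HOXA cluster and MEIS1 active and hold cells in an immature state. KAT6A is a MYST family lysine acetyltransferase that acts on histone H3 in a complex with a BRPF scaffold, ING5 and MEAF6. Blocking Menin in KMT2A-rearranged leukemia is known to let blasts take on features of mature monocytes and granulocytes, such as CD11b on the surface and lysozyme. RNA was measured in bulk, so more cells of one kind and more RNA of a gene in each cell cannot be told apart.

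The table lists estimated counts for 26475 gene symbols, and 12401 genes had enough counts to be tested. The libraries held 18092906 to 23634468 counts. The 2 replicates of DMSO, VTP50469 and WM119 correlated at 0.991 to 0.995 (Pearson, log2 CPM, where CPM are counts scaled to a library of 1000000 counts), and 27 to 83 genes lay more than 2-fold apart within a pair. The 2 VTP50469+WM119 replicates correlated at 0.955, and 1842 genes lay more than 2-fold apart. Replicate 2 of VTP50469+WM119 stood apart from the other 7 libraries, with 12972 genes that had a count against 14142 to 14544 elsewhere, and with 28.6% of its counts in its 100 most abundant genes against 21.1 to 23.8%. In that replicate the difference from the VTP50469 mean ran with transcript length. Its median was 0.75 on the log2 scale in the group of genes with the shortest transcripts (10 groups of equal size) and -0.69 in that with the longest, while in VTP50469+WM119 replicate 1 the same medians were 0.02 and -0.003. For this reason the gene lists of 10 or more tested genes are also given a median by replicate, which is that of VTP50469+WM119 replicate 1 and then replicate 2 minus the VTP50469 mean on the log2(CPM + 1) scale. Over all tested genes the medians by replicate were -0.0006 and -0.02. The part of transcript length in the pooled values was not tested further than by the fit with length and GC offsets named below.

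**Figure D1:**
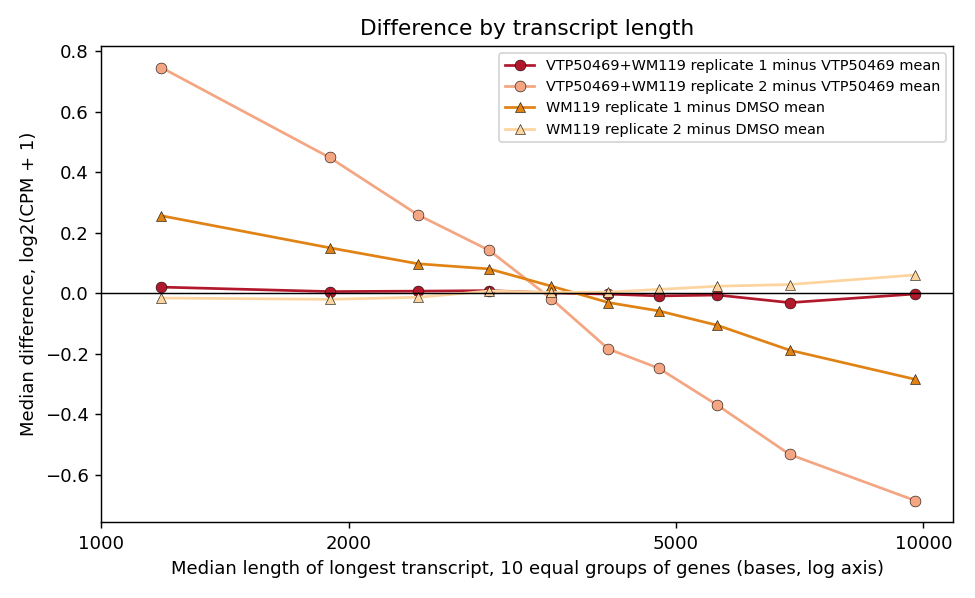
Median difference on the log2(CPM + 1) scale (vertical axis) against median transcript length in bases (horizontal log axis) for 10 equal groups of the 11416 genes with a known length. Dark red and pale red circles are VTP50469+WM119 replicates 1 and 2 minus the VTP50469 mean, and dark and pale orange triangles are WM119 replicates 1 and 2 minus the DMSO mean. VTP50469+WM119 replicate 2 runs from 0.75 to -0.69, WM119 replicate 1 from 0.26 to -0.29, and the other 2 libraries lie at most 0.0601 from 0.

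Adding WM119 to VTP50469 raised the complement gene C3, the adhesion gene PECAM1 and markers of monocytes and macrophages (ITGAM, ITGAX, LYZ and CSF1R), and it lowered a mixed set that included the cyclin gene CCND1, the transcription factor gene E2F5 and the Notch ligand gene JAG2. At an adjusted p under 0.05 (edgeR quasi-likelihood test, Benjamini-Hochberg adjustment over all tested genes), 29 genes were higher in VTP50469+WM119 than in VTP50469, which is 0.234% of those tested, and 20 were lower, which is 0.161%. All 49 had both VTP50469+WM119 libraries beyond both VTP50469 libraries. Over all tested genes, both VTP50469+WM119 libraries lay above both VTP50469 libraries for 2821 genes (22.7%) and below both for 2994 (24.1%), so such a separation alone was common. The median log2 fold change over all tested genes was 0.00197. At an unadjusted p under 0.05, 1379 genes were higher and 846 lower.

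The number of calls varied widely with the fit. Fitting the 4 libraries of the comparison alone called 0 genes (910 at an unadjusted p under 0.05), and so did leaving out VTP50469 replicate 1 or replicate 2 (824 and 1088 unadjusted). Leaving out any 1 of the DMSO or WM119 libraries left C3 as the 1 call. All 49 genes were called again when VTP50469+WM119 replicate 2 was left out (218 higher, 1.72%, and 107 lower, 0.843%), a fit in which the lone VTP50469+WM119 library is assumed to vary like the other groups. All 49 were also called by DESeq2 (471 higher, 3.65%, and 213 lower, 1.65%) and in the fit with offsets for transcript length and GC content (258 higher and 180 lower). The median transcript length was 3989 bases for the raised genes, 4744 bases for the lowered genes and 3817 bases for all tested genes. C3 and PECAM1 were the 2 genes still called with a required change of 1.5-fold, with the replicate numbers as a block, and with library weights in limma.

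The gene with the lowest p-value was C3, which encodes the central component of complement (hg38 chromosome 19, 6677704 to 6730562, minus strand). C3 was at 41.8 and 49.7 CPM in the 2 VTP50469+WM119 libraries, against 3.33 and 3.87 CPM in the 2 VTP50469 libraries. It was 12.7-fold higher, a log2 fold change of 3.66 ± 0.19 (SE, edgeR adjusted p = 0.00413). Without VTP50469, C3 was at 1.15 and 1.31 CPM in WM119 cells, against 0.920 and 0.806 CPM in DMSO cells, a log2 fold change of 0.51 ± 0.24 (adjusted p = 1). Outside the VTP50469+WM119 group no library exceeded 3.87 CPM of C3. C3 overlaps GPR108 at one end on the same strand in GENCODE, so a part of its reads may be shared.

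PECAM1, the gene of the adhesion molecule CD31 (chromosome 17, 64319415 to 64413776, minus strand), was at 208 and 236 CPM in VTP50469+WM119 cells, against 44.7 and 48.7 CPM in VTP50469 cells. Its log2 fold change was 2.25 ± 0.14 (adjusted p = 0.00583). In WM119 cells it was at 65.9 and 66.9 CPM, against 32.5 and 29.5 CPM in DMSO cells (log2 fold change 1.1 ± 0.13, adjusted p = 0.2). The groups did not overlap in either pair, and the 2 libraries of each group lay close together.

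**Figure D2:**
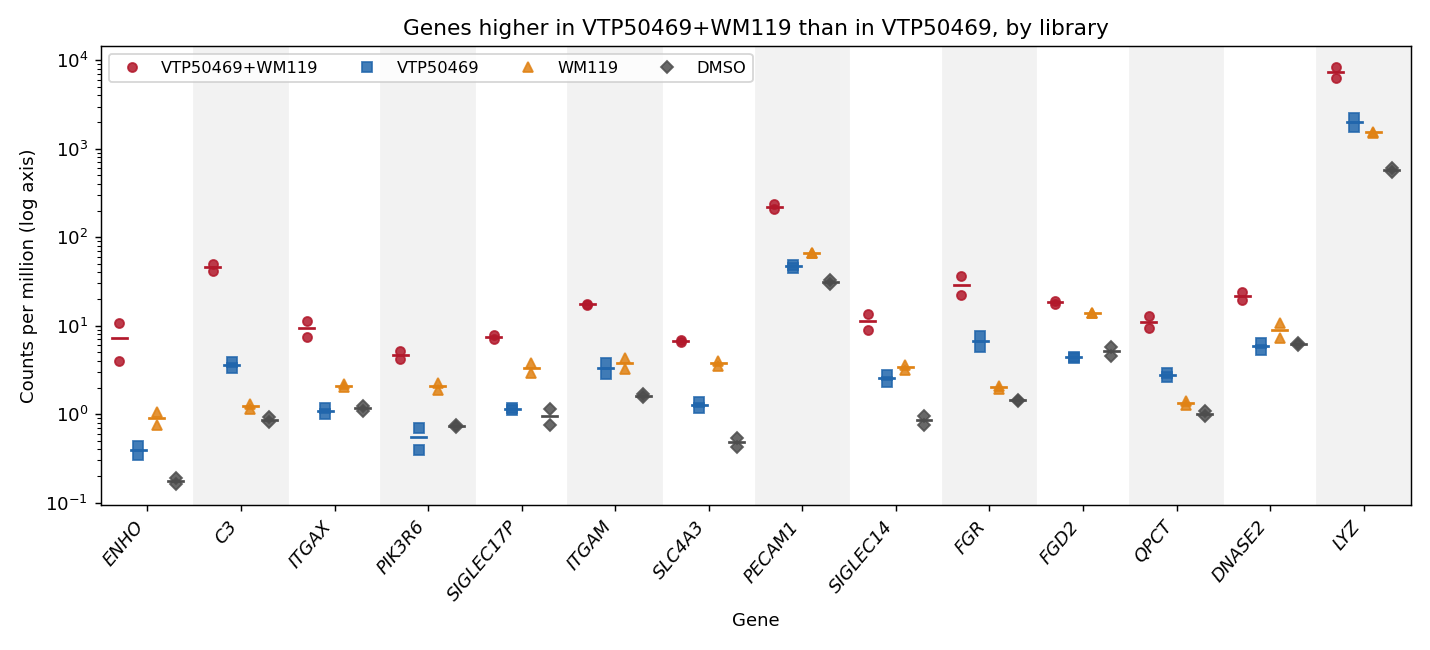
CPM on a log axis (vertical) for 14 of the 15 genes with the largest called rise in VTP50469+WM119 over VTP50469 (horizontal). Each point is a library and each short line a group mean, with VTP50469+WM119 as red circles, VTP50469 as blue squares, WM119 as orange triangles and DMSO as gray diamonds. For each of the 14 genes both red points lie above the other 6 libraries.

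The leukocyte integrin chains followed. ITGAM encodes CD11b, the alpha chain of complement receptor 3, and lies on chromosome 16 (31259967 to 31332892, plus strand) next to ITGAX (31355134 to 31382999, plus strand), which encodes CD11c of complement receptor 4. ITGAM was at 17.4 CPM in both VTP50469+WM119 libraries, against 3.83 and 2.81 CPM in VTP50469 cells (log2 fold change 2.39 ± 0.24, adjusted p = 0.0298). ITGAX was at 7.46 and 11.2 CPM in VTP50469+WM119 cells, against 1.18 and 1.01 CPM in VTP50469 cells (3.09 ± 0.31, adjusted p = 0.0298). Both receptors bind fragments of C3. Of the 15 tested integrin genes and partners, these 2 were called higher and none lower (median log2 fold change 0.40, by replicate 0.23 and 0.36), and with VTP50469+WM119 replicate 1 alone 5 were called higher. FERMT3, the kindlin that activates leukocyte integrins, had 104 and 142 CPM in VTP50469+WM119 cells, against 56.3 and 61.2 CPM in VTP50469 cells (1.07 ± 0.17, adjusted p = 0.0668).

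Several receptors of the myeloid surface were called. CSF1R, the receptor for the macrophage growth factor CSF1, was at 28.3 and 27.8 CPM in VTP50469+WM119 cells, against 10.7 and 9.75 CPM in VTP50469 cells (1.46 ± 0.15, adjusted p = 0.0298). In WM119 cells it was at 11 and 11.5 CPM, against 4.33 and 4.65 CPM in DMSO cells (1.32 ± 0.15, adjusted p = 0.2), so the size of the addition was close with and without VTP50469 (difference 0.13 ± 0.21). CD300C, an activating receptor of the CD300 family, was at 16.8 and 18.9 CPM in VTP50469+WM119 cells, against 4.90 and 6.76 CPM in VTP50469 cells (1.61 ± 0.22, adjusted p = 0.0474). The sialic acid receptor SIGLEC14 (log2 fold change 2.15) and the pseudogene SIGLEC17P (2.69) were also called, but each resembles other SIGLEC genes in sequence, and reads may have been split among them. The list of inhibitory and sialic acid receptors also holds activating receptors such as CD300C. Of its 25 tested genes, 2 were called higher (CD300C and SIGLEC14) and 0 lower. In 19, against 22.7% of all tested genes, both VTP50469+WM119 libraries lay above both VTP50469 libraries. The median log2 fold change was 1.12 (by replicate 0.88 and 0.85). With replicate 1 alone 12 of the 25 were called higher and 0 lower. SEMA4A and SEMA6B, both transmembrane semaphorins, and MS4A6A, a membrane protein of monocytes and macrophages, rose by 1.55, 1.49 and 1.12 on the log2 scale.

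Genes of several enzymes were also called. LYZ, which encodes lysozyme, was at 6374 and 8431 CPM in VTP50469+WM119 cells, against 1783 and 2226 CPM in VTP50469 cells (1.88 ± 0.19, adjusted p = 0.0298). The WM119 libraries held 1559 and 1502 CPM, against 541 and 598 CPM in DMSO cells (1.43 ± 0.19, adjusted p = 0.206). The endonuclease gene DNASE2, whose product digests DNA in lysosomes, was at 19.6 and 24.2 CPM in VTP50469+WM119 cells, against 5.35 and 6.32 CPM in VTP50469 cells (1.91 ± 0.24, adjusted p = 0.0409). QPCT, the glutaminyl cyclase, and PTGS1, the constitutive cyclooxygenase, rose by 1.98 ± 0.25 and 1.79 ± 0.19. GCA, which encodes the calcium-binding protein grancalcin, rose by 1.65 ± 0.22.

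Genes of intracellular signaling and of the cytoskeleton were among the remaining calls. FGR, a SRC family kinase of myeloid cells, was at 22.3 and 36.1 CPM in VTP50469+WM119 cells, against 5.79 and 7.55 CPM in VTP50469 cells (2.13 ± 0.27, adjusted p = 0.0409). FGD2, an exchange factor for CDC42, was at 17.7 and 18.9 CPM in VTP50469+WM119 cells, against 4.46 and 4.30 CPM in VTP50469 cells (2.06 ± 0.18, adjusted p = 0.0298). PIK3R6, a regulatory subunit of the gamma form of phosphoinositide 3-kinase, and PLCB2, a phospholipase C that acts below G protein-coupled receptors, rose by 3.07 ± 0.39 and 1.39 ± 0.17. VIM, the intermediate filament vimentin, was at 1116 and 1337 CPM in VTP50469+WM119 cells, against 504 and 482 CPM in VTP50469 cells (1.31 ± 0.14, adjusted p = 0.0298). It was at 1090 and 1023 CPM in WM119 cells, against 776 and 709 CPM in DMSO cells, which made VTP50469 the group with the lowest VIM.

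ENHO, which encodes the secreted peptide adropin, had the largest fold change among the raised genes (4.19 ± 0.58, adjusted p = 0.0474), with 4.03 and 10.6 CPM in VTP50469+WM119 cells against 0.343 and 0.439 CPM in VTP50469 cells, so its replicates also lay far apart. SLC4A3, an anion exchanger, was at 6.49 and 6.94 CPM in VTP50469+WM119 cells, against 1.37 and 1.19 CPM in VTP50469 cells (2.39 ± 0.26, adjusted p = 0.0298). PLXDC2, DCANP1, METTL9, VASH1 and TMC8 were also raised, with log2 fold changes of 1.84, 1.37, 1.28, 1.25 and 1.12. DCANP1 overlaps TIFAB on the same strand, METTL9 holds IGSF6 on the other strand, and TMC8 overlaps TMC6. Other called genes also overlap genes of the other strand, among them GCA (KCNH7), CCND1 (LTO1), E2F5 (RBIS) and FEZ1 (EI24 and STT3A). Whether the counting used strand is not stated in the labels or methods, so reads from such partners cannot be told apart.

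Among the lowered genes, CCND1 had the lowest p-value. It encodes cyclin D1, which drives entry into S phase with CDK4 and CDK6, and lies on chromosome 11 (69641156 to 69654474, plus strand). CCND1 was at 5.94 and 6.82 CPM in VTP50469+WM119 cells, against 25.4 and 24.2 CPM in VTP50469 cells (-1.96 ± 0.16, adjusted p = 0.025). In WM119 cells it was at 16.1 and 13.9 CPM, against 30.6 CPM in both DMSO libraries (-1.03 ± 0.15, adjusted p = 0.249). E2F5, an E2F transcription factor, was at 3.18 and 2.11 CPM in VTP50469+WM119 cells, against 9.86 and 9.79 CPM in VTP50469 cells (-1.88 ± 0.26, adjusted p = 0.0459). Lists of the cell cycle showed few calls beside these. Of 20 cyclin-dependent kinase genes, cyclins and inhibitors CCND1 was the one called (median by replicate -0.04 and -0.29), and of 44 S phase genes and 44 genes of G2 and M phase 0 were called by edgeR, with 0 in both lists when replicate 1 was used alone and with 1 S phase gene called lower by DESeq2. At an unadjusted p under 0.05 the S phase list held 5 genes and the G2 and M list 2. DESeq2 called 0 genes of the G2 and M list. The medians by replicate were -0.07 and -0.23 for S phase and 0.01 and -0.25 for G2 and M.

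**Figure D3:**
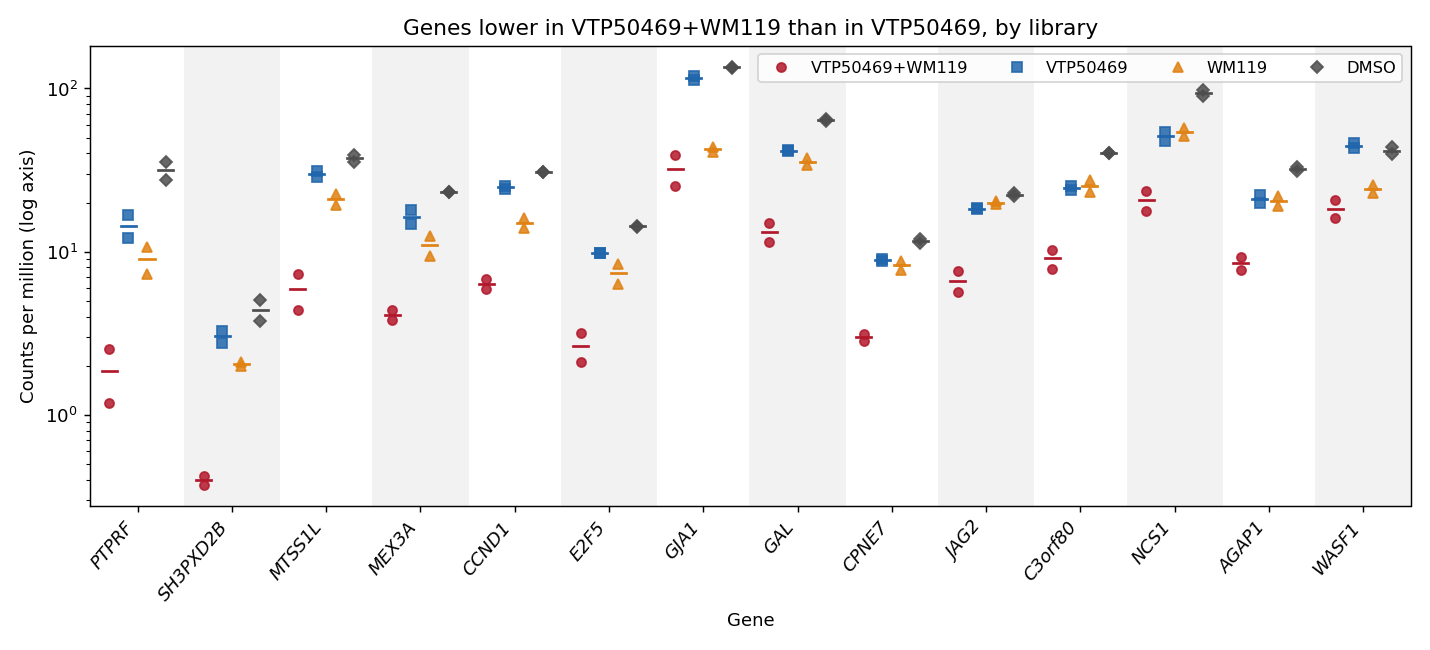
CPM on a log axis (vertical) for 14 of the 15 genes with the largest called fall in VTP50469+WM119 against VTP50469 (horizontal). Symbols are as for the raised genes, and ISY1-RAB43 is left out because it had 0 counts in both VTP50469+WM119 libraries. For each of the 14 genes both red circles lie below the other 6 libraries.

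The remaining lowered genes were of mixed function. PTPRF, a receptor tyrosine phosphatase, was at 2.54 and 1.18 CPM in VTP50469+WM119 cells, against 16.8 and 12.1 CPM in VTP50469 cells (-2.92 ± 0.40, adjusted p = 0.0459). GJA1, the gap junction protein connexin 43, was at 39.1 and 25.2 CPM in VTP50469+WM119 cells, against 119 and 113 CPM in VTP50469 cells (-1.85 ± 0.21, adjusted p = 0.0318). In cells without VTP50469 it fell about as far, to 41.0 and 43.9 CPM in WM119 cells, against 134 and 136 CPM in DMSO cells (-1.67 ± 0.21), though adjusted p there was 0.2. JAG2, a Notch ligand, was at 7.63 and 5.64 CPM in VTP50469+WM119 cells, against 18.1 and 18.4 CPM in VTP50469 cells (-1.45 ± 0.18, adjusted p = 0.0405), and was the one call among 19 tested genes of the Notch pathway. GAL, the neuropeptide galanin, was at 11.5 and 15 CPM in VTP50469+WM119 cells, against 41.8 and 41.1 CPM in VTP50469 cells (-1.65 ± 0.17, adjusted p = 0.0298). SOCS2, an inhibitor of cytokine signaling, was at 10.6 and 10.5 CPM in VTP50469+WM119 cells, against 27.2 and 23.4 CPM in VTP50469 cells (-1.27 ± 0.14, adjusted p = 0.0305).

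SH3PXD2B, a scaffold of podosomes, was at 0.424 and 0.372 CPM in VTP50469+WM119 cells, against 3.29 and 2.77 CPM in VTP50469 cells (-2.90 ± 0.34, adjusted p = 0.0341). MTSS1L, a membrane-bending actin regulator, fell by 2.34 and WASF1, an activator of the ARP2/3 complex, by 1.28 on the log2 scale. MEX3A, an RNA-binding protein, was at 3.82 and 4.40 CPM in VTP50469+WM119 cells, against 17.9 and 14.8 CPM in VTP50469 cells (-2 ± 0.21, adjusted p = 0.0298). The homeobox gene IRX3 had the smallest fall of the 20, to 58.5 and 65.2 CPM in VTP50469+WM119 cells, against 115 and 120.1 CPM in VTP50469 cells (-0.93 ± 0.13, adjusted p = 0.0459). CPNE7, C3orf80, NCS1, AGAP1, MPZL1, CEP70 and FEZ1 fell by 1.56, 1.43, 1.31, 1.31, 1.20, 1.17 and 1.06 on the log2 scale. ISY1-RAB43 is a readthrough gene that shares its exons with ISY1 and RAB43. It had 0 counts in both VTP50469+WM119 libraries, against 3.53 and 5.67 CPM in VTP50469 cells, which is at least 61.7-fold lower at a floor of 3 counts over the 2 libraries. How an estimate is divided among these 3 genes can change this value, which is therefore uncertain.

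The direction of the called genes was then read in the WM119 and DMSO libraries, which take no part in the comparison with VTP50469 beyond sharing its estimate of the spread. Of the 29 raised genes, 28 had a log2 fold change above 0 for WM119 over DMSO, and of the 20 lowered genes 19 had one below 0. Over all tested genes 51.6% were above 0. In 28 of the 29 both WM119 libraries lay above both DMSO libraries, which held for 24.1% of all tested genes, and in 19 of the 20 both lay below, against 20.9%. The exceptions were SEMA6B and ISY1-RAB43. WM119 replicate 1 had a trend with transcript length like that of VTP50469+WM119 replicate 2 (Spearman -0.475 and -0.532). Between VTP50469+WM119 and WM119 libraries, changes over all tested genes correlated at 0.138 to 0.738 (Spearman), highest for that pair. The part of this trend in the counts above was not tested. The spread behind the calls came partly from the WM119 and DMSO libraries, so shares over all tested genes are not a matched background. Between WM119 and DMSO edgeR called 0 genes in the full fit, 159 when VTP50469+WM119 replicate 2 was left out and 46 with the WM119 and DMSO libraries alone. In the full fit there were 612 genes at an unadjusted p under 0.05, among them 24 of the 29 and 18 of the 20, and DESeq2 called 82.

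**Figure D4:**
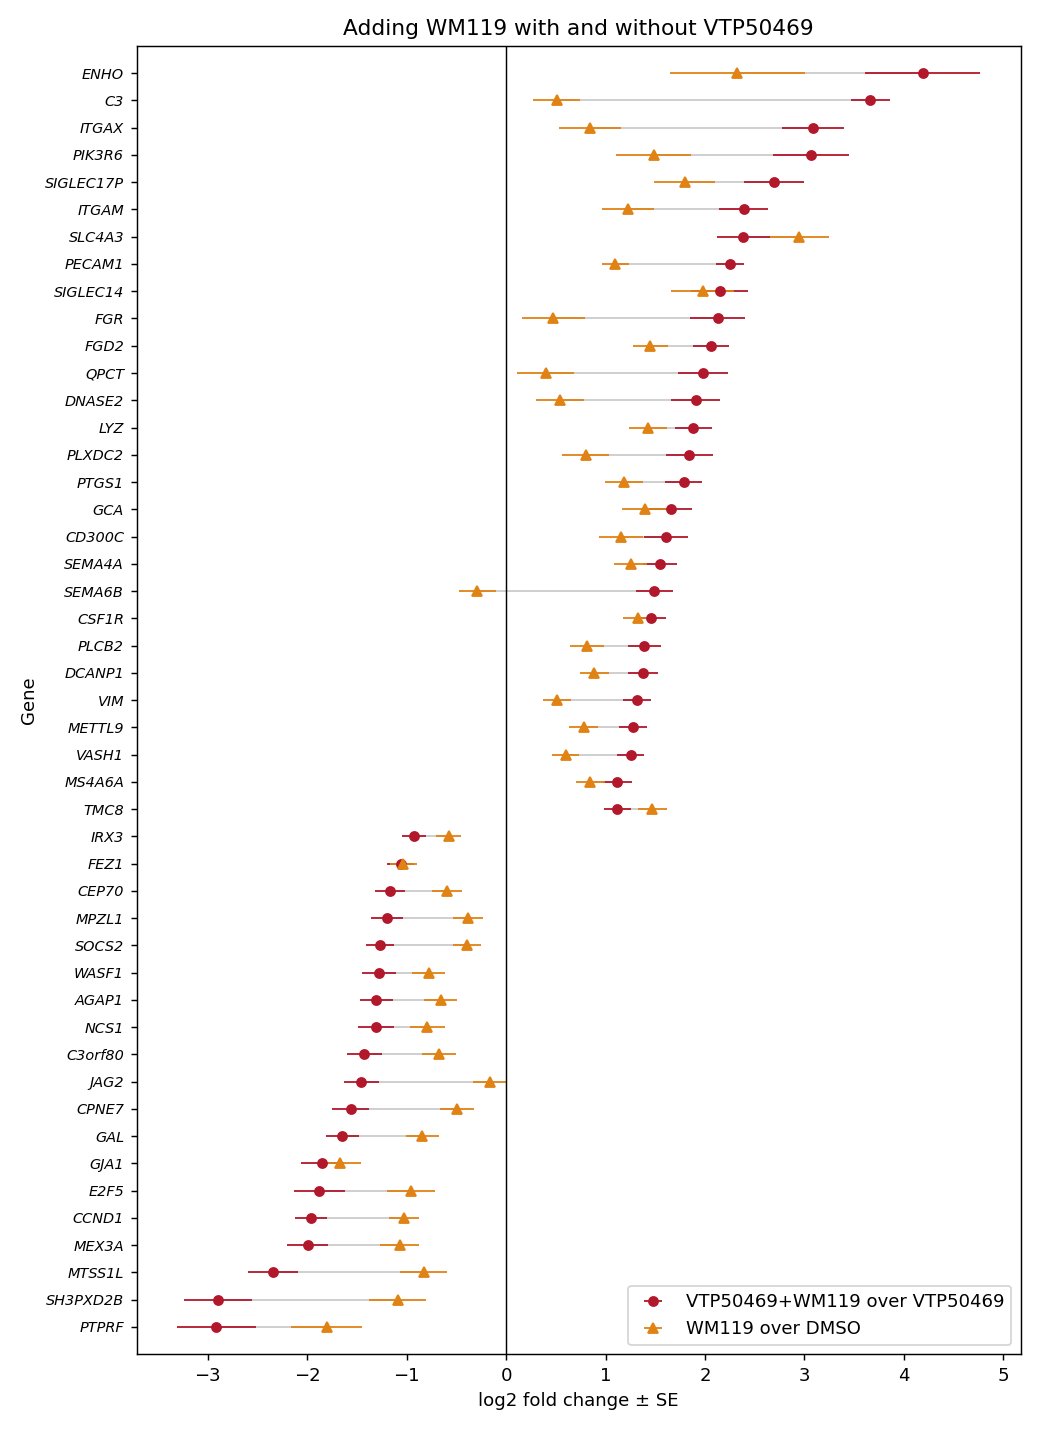
Log2 fold change ± SE (horizontal axis) for 47 of the 49 called genes (vertical axis, ISY1-RAB43 among those left out), as VTP50469+WM119 over VTP50469 in red circles and WM119 over DMSO in orange triangles. The red and orange points lie on the same side of 0 for all but SEMA6B, and the red point is farther from 0 for all but SLC4A3 and TMC8.

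The fold change was larger with VTP50469 than without it for 27 of the 29 raised and 20 of the 20 lowered genes. The genes were chosen on the first of these fold changes, which makes it the larger one more often than not, so this count is given as a description. The difference between the 2 fold changes had a median of 0.65 over the raised genes and -0.84 over the lowered genes. For this difference as an interaction of the 2 inhibitors over all genes, edgeR called 0 genes, with 273 genes at an unadjusted p under 0.05. DESeq2 called 5 genes, C3, PECAM1, SEMA6B, ISY1-RAB43 and the readthrough gene CHURC1-FNTB. C3 had the lowest adjusted p among the named genes in edgeR, with an interaction of 3.15 ± 0.30 on the log2 scale (adjusted p = 0.231). FGR and QPCT also changed little without VTP50469, but neither interaction was called by edgeR or DESeq2 (1.65 ± 0.42 and 1.58 ± 0.38). ITGAX had a larger one, 2.24 ± 0.43, which was not called either. FGR was at 2.09 and 1.92 CPM in WM119 cells, against 1.46 and 1.42 CPM in DMSO cells. QPCT was at 1.41 and 1.27 CPM in WM119 cells, against 1.08 and 0.949 CPM in DMSO cells. SLC4A3 and TMC8 had smaller fold changes with VTP50469 than without it, a difference called in neither gene (-0.56 ± 0.39 for SLC4A3). SLC4A3 changed by 2.39 with VTP50469 and by 2.95 without it, and TMC8 by 1.12 with it and 1.47 without it.

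Gene lists were described by their counts and medians, to be read against the same counts over all 12401 tested genes. Over these, both VTP50469+WM119 libraries lay above both VTP50469 libraries for 22.7% and below for 24.1%. At an unadjusted p under 0.05, 1379 were higher and 846 lower in edgeR, and DESeq2 called 3.65% higher and 1.65% lower. Of 22 tested markers of monocytes and macrophages, 4 were called higher (ITGAX, ITGAM, LYZ and CSF1R) and 0 lower, 15 had both VTP50469+WM119 libraries above both VTP50469 libraries and 0 below, and the median log2 fold change was 0.92 (by replicate 0.66 and 0.88). Of the 22, 7 were called higher with replicate 1 alone. Their summed level was 7320 and 9851 CPM in VTP50469+WM119 cells, against 2387 and 2854 CPM in VTP50469 cells, most of it LYZ. Of 17 tested neutrophil and granule genes 0 were called by edgeR, although all 17 had a log2 fold change above 0, 16 were above in both libraries, 16 had an unadjusted p under 0.05 and the median was 1.41 (by replicate 0.80 and 1.43). DESeq2 called 7 of them higher, and with replicate 1 alone edgeR called 3, CSF3R, CXCR2 and MPO. MPO, which encodes myeloperoxidase, was at 1421 and 2214 CPM in VTP50469+WM119 cells, against 689 and 897 CPM in VTP50469 cells (adjusted p = 0.102). MPO was at 99.7 and 106 CPM in WM119 cells, against 48.6 and 40.0 CPM in DMSO cells (adjusted p = 0.387), and its log2 fold change was 1.20 with VTP50469 and 1.21 without it. Of 10 tested stem and progenitor markers, SOCS2 was called lower, and 4 had a log2 fold change above 0 and 6 below. Both VTP50469+WM119 libraries lay above both VTP50469 libraries for 2 and below them for 5, and the median was -0.51. By replicate that median was -0.21 and -0.54, and with replicate 1 alone 2 were called lower.

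Markers of other lineages gave 0 calls by edgeR, and DESeq2 called 2 of the T and NK list higher and 1 of the B and plasma list lower. Summed over 15 erythroid markers the level was 0 CPM in both VTP50469+WM119 libraries, against 0 and 0.0439 CPM in the VTP50469 libraries, and 13 of the 15 had 0 counts in all 8 libraries. Summed over 14 epithelial, stromal and HEK293 markers it was 3.22 and 4.96 CPM in VTP50469+WM119 cells, against 2.40 and 3.12 CPM in VTP50469 cells. B and plasma cell markers summed to 2.29 and 3.59 CPM in VTP50469+WM119 cells, against 1.82 and 1.19 CPM in VTP50469 cells. Markers of T and NK cells summed to 90.7 and 120.1 CPM in VTP50469+WM119 cells, against 92.8 and 82.8 CPM in VTP50469 cells, nearly all of it NCAM1 and NKG7. Dendritic cell markers summed to 175 and 124 CPM in VTP50469+WM119 cells, against 215 and 193 CPM in VTP50469 cells, mostly from FLT3. Megakaryocyte markers and markers of mast cells, basophils and eosinophils summed to at most 7 CPM in any library. FLT3 and CD33, both typical of MOLM-13, were present in every library, with FLT3 at 144 and 82.2 CPM in VTP50469+WM119 cells against 175 and 151 CPM in VTP50469 cells, and CD33 at 80.3 and 101 CPM in VTP50469+WM119 cells against 63.4 and 65.1 CPM in VTP50469 cells.

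**Figure D5:**
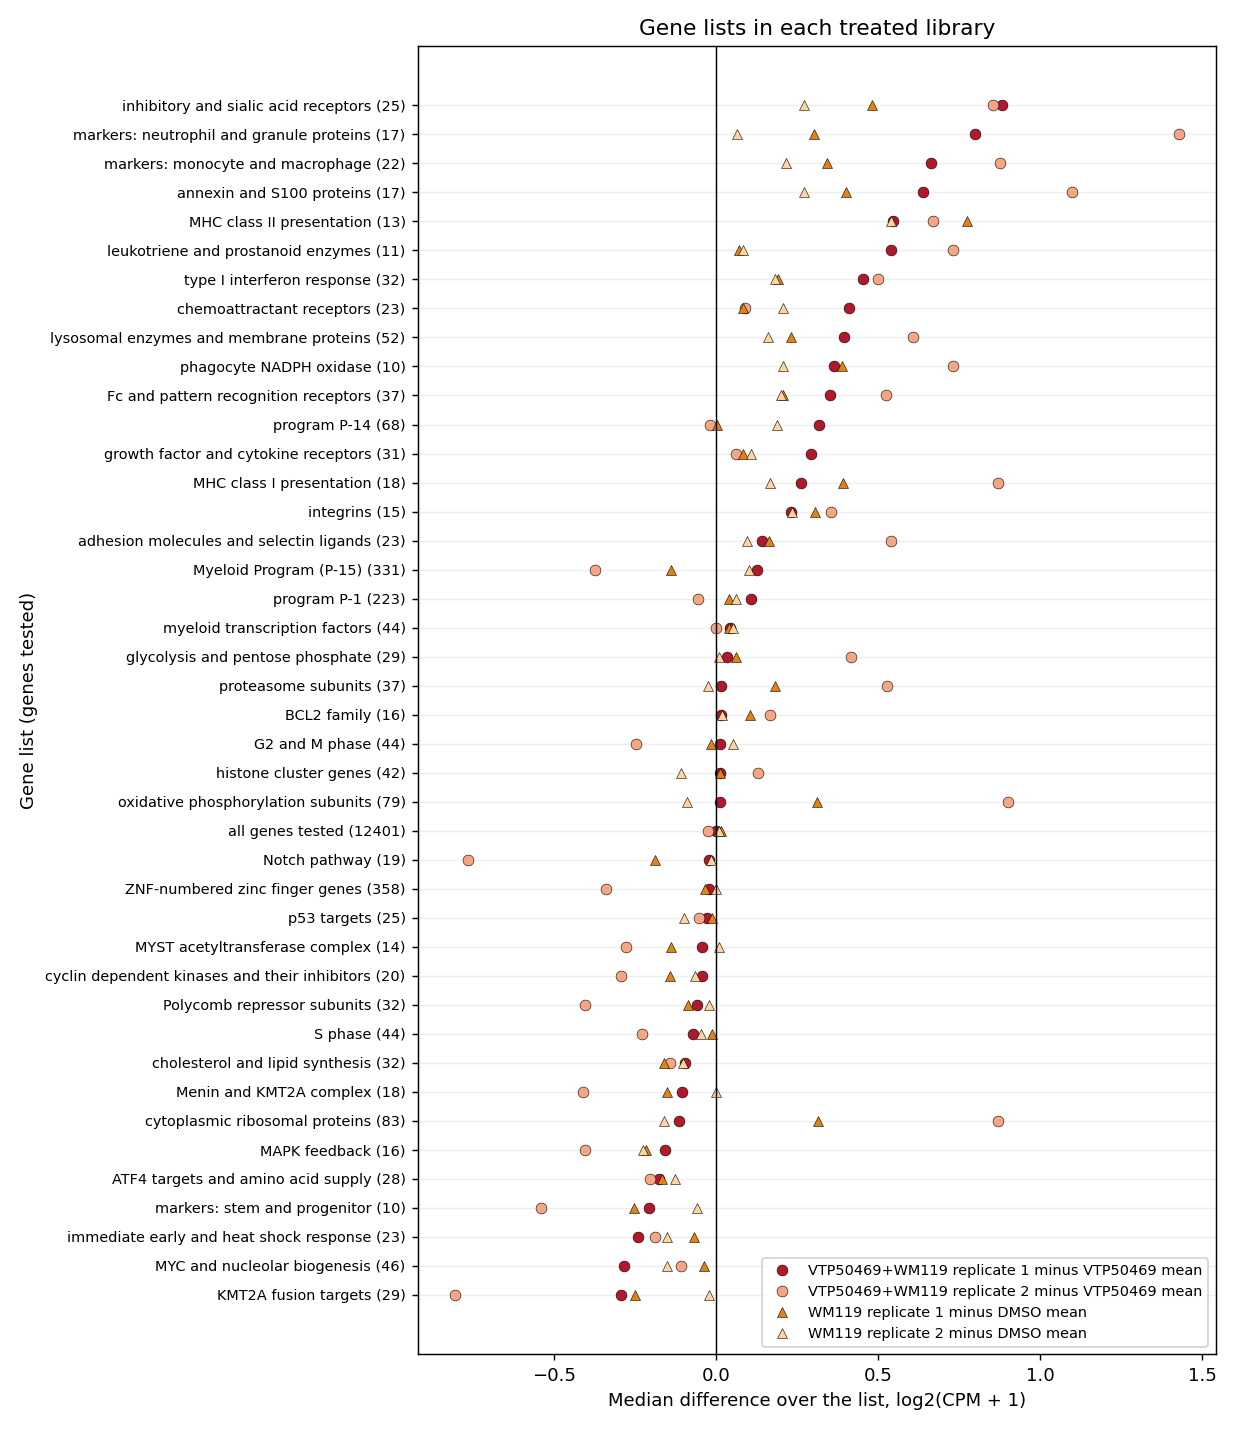
Median difference on the log2(CPM + 1) scale (horizontal axis) over each gene list with at least 10 tested genes (vertical axis, number tested in parentheses), by library. Dark and pale red circles are VTP50469+WM119 replicates 1 and 2 minus the VTP50469 mean, and dark and pale orange triangles are WM119 replicates 1 and 2 minus the DMSO mean. Inhibitory and sialic acid receptors have medians of 0.88 and 0.85 in the 2 VTP50469+WM119 libraries, while cytoplasmic ribosomal protein genes have -0.11 and 0.87.

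Genes of the lysosomal list, which does not hold the called DNASE2, mostly rose without a call in the full fit. Of 52 tested lysosomal enzymes and membrane proteins, 49 had a log2 fold change above 0 and 37 were above in both libraries, but 0 were called by edgeR in the full fit, with 33 at an unadjusted p under 0.05 (median 0.51, by replicate 0.40 and 0.61). With replicate 1 alone 12 were called higher and 0 lower, and DESeq2 called 14. GRN, the progranulin gene, was at 818 and 1478 CPM in VTP50469+WM119 cells, against 319 and 337 CPM in VTP50469 cells (1.81 ± 0.27, adjusted p = 0.0591). CTSZ, which encodes cathepsin Z, was at 131 and 248 CPM in VTP50469+WM119 cells, against 42.6 and 49.5 CPM in VTP50469 cells (2.04 ± 0.30, adjusted p = 0.0591). Annexin and S100 genes gave 6 calls of 17 with replicate 1 alone, 8 by DESeq2 and 0 in the full edgeR fit, where 11 had an unadjusted p under 0.05 (median 1.16, by replicate 0.64 and 1.1). S100A9, a calprotectin subunit of granulocytes and monocytes, was at 46.7 and 154 CPM in VTP50469+WM119 cells, against 4.17 and 9 CPM in VTP50469 cells (3.93 ± 0.66, adjusted p = 0.0683).

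Fc and pattern recognition receptors had 22 of 37 genes above in both libraries, against 22.7% of all tested genes, and 0 called in the full edgeR fit. Of the 37, 18 were higher and 1 lower at an unadjusted p under 0.05. DESeq2 called 9 higher, and the median was 0.81. The medians by replicate were 0.35 and 0.52, and with replicate 1 alone 3 were called higher. FCGRT, the neonatal Fc receptor, was at 101 and 203 CPM in VTP50469+WM119 cells, against 26.7 and 35.1 CPM in VTP50469 cells (2.29 ± 0.33, adjusted p = 0.0558). Of 11 tested leukotriene and prostanoid enzymes PTGS1 was called (median by replicate 0.54 and 0.73, with 3 called higher with replicate 1 alone), and ALOX5AP, the activating protein of 5-lipoxygenase, was at 430.1 and 682 CPM in VTP50469+WM119 cells, against 180.3 and 204 CPM in VTP50469 cells (1.53 ± 0.23, adjusted p = 0.0591). MHC class II genes had a median of 0.76 and MHC class I genes one of 0.69, with 0 calls each in the full edgeR fit. By replicate the class II median was 0.55 and 0.67 and the class I median 0.26 and 0.87, so replicate 2 carried most of the class I value. In the fit with replicate 1 alone, 1 class II gene and 0 class I genes were called higher. At an unadjusted p under 0.05 there were 5 class II and 11 class I genes, and DESeq2 called 3 and 6. The class II median was 0.85 for WM119 over DMSO, the highest of any list of 10 or more genes in that comparison. Type I interferon response genes had a median of 0.64 (by replicate 0.45 and 0.50), with 0 of 32 called in the full edgeR fit or with replicate 1 alone, 11 at an unadjusted p under 0.05 and 5 called higher by DESeq2.

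Transcription factors of the myeloid lineage were read next. Of 44 tested, 0 were called in the full edgeR fit, and 9 were higher and 3 lower at an unadjusted p under 0.05. DESeq2 called 6 higher, and the median was -0.04 (by replicate 0.04 and 0.001). The fit with replicate 1 alone called 1 higher. CEBPE, the C/EBP factor of late granulocyte maturation, was at 9.46 and 26.0 CPM in VTP50469+WM119 cells, against 2.99 and 3.60 CPM in VTP50469 cells (2.42 ± 0.50, adjusted p = 0.102). SPI1, which encodes PU.1, was at 243 and 418 CPM in VTP50469+WM119 cells, against 179 and 194 CPM in VTP50469 cells (0.82 ± 0.24, adjusted p = 0.181). CEBPA was at 683 and 986 CPM in VTP50469+WM119 cells, against 568 and 608 CPM in VTP50469 cells (adjusted p = 0.249), and CEBPD at 64.5 and 122 CPM in VTP50469+WM119 cells, against 43.7 and 50.4 CPM in VTP50469 cells (adjusted p = 0.172). CD14, the monocyte receptor for lipopolysaccharide, was near its limit of detection, with 0.975 and 2.85 CPM in VTP50469+WM119 cells against 0.147 and 0.395 CPM in VTP50469 cells (adjusted p = 0.159). ALCAM, an adhesion molecule, overlapped between the groups, with 133 and 79.8 CPM in VTP50469+WM119 cells and 81.5 and 88.4 CPM in VTP50469 cells (adjusted p = 0.463).

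The genes of the inhibited complexes were not called. KAT6A, the target of WM119, was at 126 and 38.0 CPM in VTP50469+WM119 cells, against 159 and 129 CPM in VTP50469 cells (-0.81 ± 0.53, adjusted p = 0.402), and KAT6B, its paralog, at 27.5 and 8.55 CPM in VTP50469+WM119 cells, against 38.1 and 30.9 CPM in VTP50469 cells. Both are long transcripts, and in both the low value was that of replicate 2. With replicate 1 alone the log2 fold changes were -0.18 and -0.32. Of the 14 tested subunits of MYST complexes, 0 were called by edgeR or DESeq2 and 1 (ING4) had an unadjusted p under 0.05 (median by replicate -0.04 and -0.28). The other acetyltransferases KAT7, KAT5 and KAT8 had log2 fold changes of -0.43, 0.18 and 0.34 in the full fit, and of -0.018, -0.048 and 0.029 with replicate 1 alone. The scaffolds BRPF1, BRD1 and BRPF3 had -0.34, -0.07 and -0.57 (with replicate 1 alone -0.21, 0.0004 and 0.014), and JADE1, JADE2 and JADE3, scaffolds of KAT7 complexes, had -0.20, -0.31 and -0.44 (with replicate 1 alone -0.26, -0.19 and 0.013). ING4, ING5 and MEAF6 had 0.91, 0.09 and 0.01 (with replicate 1 alone 0.48, -0.024 and -0.11). MEN1, which encodes Menin, was at 75.1 and 62.5 CPM in VTP50469+WM119 cells, against 89.5 and 82.3 CPM in VTP50469 cells (-0.32 ± 0.14, adjusted p = 0.287), and KMT2A at 28.6 and 9.86 CPM in VTP50469+WM119 cells, against 40.8 and 34.2 CPM in VTP50469 cells (adjusted p = 0.338). An inhibitor acts on the protein, so these RNA levels are no check of the treatment.

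Genes known to be bound by KMT2A fusions had mostly negative fold changes. Of 29 tested, 26 had a log2 fold change below 0. In 19 both VTP50469+WM119 libraries lay below both VTP50469 libraries, against 24.1% of all tested genes. In 0 both lay above, against 22.7%. However, 0 were called in the full edgeR fit, 11 had an unadjusted p under 0.05 and 2 were called lower by DESeq2. The median was -0.59, and by library it was -0.29 in replicate 1 and -0.81 in replicate 2. MYC was at 339 and 262 CPM in VTP50469+WM119 cells, against 466 and 449 CPM in VTP50469 cells (-0.61 ± 0.15, adjusted p = 0.136). HOXA3 was at 1.23 and 1.05 CPM in VTP50469+WM119 cells, against 3.24 and 3.73 CPM in VTP50469 cells (-1.60 ± 0.26, adjusted p = 0.067), whereas it was at 4.09 and 4.36 CPM in WM119 cells against 3.73 and 4.22 CPM in DMSO cells. The WM119 over DMSO median for the list was -0.12, and by library it was -0.25 in WM119 replicate 1 and -0.02 in WM119 replicate 2.

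Gene programs that the study drew from its Perturb-seq of MOLM-13 cells, an experiment apart from these libraries, were read in the same way. Of the 331 tested genes of its Myeloid Program, METTL9 and MS4A6A were called higher and 0 lower. At an unadjusted p under 0.05, 49 of the 331 were higher and 10 lower. With replicate 1 alone 15 were called higher and 1 lower, and DESeq2 called 24 higher and 1 lower. The median of the list differed in sign between libraries, at 0.13 in VTP50469+WM119 replicate 1 and -0.37 in replicate 2 on the log2(CPM + 1) scale, and it was -0.11 in the pooled fit. Program P-14 had 2 of 68 genes called higher, VIM and PECAM1, with 12 called higher with replicate 1 alone, and medians of 0.32 and -0.02 in the 2 replicates. Program P-1 had 0 of 223 called in the full edgeR fit, with medians of 0.11 and -0.06 in the 2 replicates. At an unadjusted p under 0.05, 48 were higher and 5 lower, and DESeq2 called 24 higher. For program P-14, 18 were higher and 0 lower at that threshold, and DESeq2 called 12 higher.

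Growth and housekeeping lists showed how far the second replicate decided a pooled value. Cytoplasmic ribosomal protein genes were above 0 in the pooled fit for 82 of 83, with a median of 0.45, yet the median was -0.11 in replicate 1 and 0.87 in replicate 2. Subunits of oxidative phosphorylation had 0.01 and 0.90, and proteasome subunits 0.02 and 0.53. MYC-dependent and nucleolar biogenesis genes had -0.28 and -0.11, and ATF4 targets with amino acid supply genes -0.18 and -0.20, so these lists were below 0 in both. Of these 5 lists 0 genes were called in the full edgeR fit. At an unadjusted p under 0.05 there were 0, 5, 7, 12 and 4 genes in the order given, and DESeq2 called 0, 0, 1, 3 and 2. The 18 tested genes of Menin and KMT2A complexes had medians of -0.10 and -0.41 by replicate, the 32 Polycomb genes -0.06 and -0.40, the 19 Notch genes -0.02 and -0.77, and the 358 numbered ZNF genes -0.02 and -0.34. BMI1, a subunit of the Polycomb repressor PRC1, was at 291 and 164 CPM in VTP50469+WM119 cells, against 472 and 449 CPM in VTP50469 cells (-1.02 ± 0.25, adjusted p = 0.133), and was called lower with replicate 1 alone (-0.65, adjusted p = 0.0199).

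Promoters of the called genes were searched for 4 short motifs on both strands, in the 250 bases before and 50 bases after the start in RefSeq (GRCh38), which matched 16 of the 29 raised and 12 of the 20 lowered genes by symbol. The motifs were GAGGAAGT for PU.1, TTGCNNCAA for C/EBP factors, TGANTCA for AP-1 and TGTGGT for RUNX factors, and no motif holds another. PU.1 and C/EBP letters were found in 0 of the 28, against 2.63% and 1.37% of the 9248 tested genes with a promoter. With shares this low and 28 promoters, 0 cannot be read as a lack of such sites. AP-1 letters were found in 1 raised gene (CSF1R, 6.25%) and 1 lowered gene (GJA1, 8.33%), against 4.48% of tested genes and 7.76% of all promoters. RUNX letters were found in 2 raised genes, ITGAM and VIM (12.5%), and in 0 lowered genes, against 9.49% of tested genes and 13.1% of all promoters. The raised CSF1R and the lowered GJA1 thus hold the same letters, and the bases before their starts are shown for that reason. They run 5′ to 3′ on the strand of the gene with the match in capitals. Each gene was searched at a single listed start, and whether these cells use that start was not tested.
CSF1R: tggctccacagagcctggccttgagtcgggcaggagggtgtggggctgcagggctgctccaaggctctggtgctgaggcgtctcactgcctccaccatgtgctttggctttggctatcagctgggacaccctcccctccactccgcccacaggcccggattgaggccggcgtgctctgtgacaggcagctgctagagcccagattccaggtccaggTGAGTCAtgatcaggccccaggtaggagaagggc
GJA1: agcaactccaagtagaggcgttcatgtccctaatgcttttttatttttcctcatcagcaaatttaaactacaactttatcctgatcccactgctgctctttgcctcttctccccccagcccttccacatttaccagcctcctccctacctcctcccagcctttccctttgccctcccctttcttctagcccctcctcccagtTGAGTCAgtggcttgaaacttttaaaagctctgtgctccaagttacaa
The first lies at chr5:150113366-150113615 on the minus strand and its match begins 34 bases before the start. The second lies at chr6:121435396-121435645 on the plus strand and its match begins 48 bases before the start.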

How the data were processed

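RNA-seq was measured in 8 MOLM-13 libraries, 2 each of VTP50469+WM119, VTP50469, WM119 and DMSO, grouped by their labels. The authors aligned reads to hg38 with STAR 2.5.1b and deposited estimated counts (expected counts) per gene symbol, without normalization. Neither labels nor methods name the counting tool, its strand setting or the annotation. The expected counts were rounded to whole numbers, filtered with filterByExpr, scaled with TMM (trimmed mean of M-values) and tested with edgeR 4.0.16 (R 4.3.3) by the quasi-likelihood test in 1 fit over the 4 groups, at a Benjamini-Hochberg adjusted p under 0.05. CPM values used the scaled library sizes. The interaction was (VTP50469+WM119 over VTP50469) minus (WM119 over DMSO). DESeq2 1.42.0, limma 3.58.1 and other settings were alternatives. The scripts were tested on simulated data. Transcript length and GC came from GENCODE 44 (hg38) for 11416 of the 12401 genes.

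Named genes were up to 15 called genes with the largest rise and 15 with the largest fall (non-overlapping groups, at least 1 CPM in the higher group), the MYST complex members with MEN1 and KMT2A, the 3 genes with the lowest p of each list, and 11 myeloid genes. The other called genes were named after their values were seen. Members and lists were chosen with earlier results of these data known. Gene programs were taken from the study's Perturb-seq table, a separate single-cell experiment in MOLM-13. Replicate numbers were not used to pair libraries. Some results are not reported here.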

Additional observations from a re-analysis of the deposited data

Results flagged for a closer look

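SEMA6B was the 1 called gene whose libraries moved in opposite directions. It was at 12.7 and 14.6 CPM in VTP50469+WM119 cells, both above the 4.66 and 5.05 CPM of VTP50469 cells, and at 4.22 and 4.36 CPM in WM119 cells, both below the 5.41 and 5.07 CPM of DMSO cells. The difference between the 2 log2 fold changes was 1.78 ± 0.26 (SE, 2 libraries in each group). It was not called by edgeR (adjusted p = 0.938) and was called by DESeq2 (adjusted p = 0.00429).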

How the results depend on the processing

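The 29 higher and 20 lower calls moved with most settings. They numbered 471 and 213 with DESeq2, 100 and 48 without a count filter, 258 and 180 with length and GC offsets, 2 and 0 with a fold threshold of 1.5, 2 and 0 with limma library weights, and 0 and 0 with only the groups compared. With library size only there were 12 lower calls. Leaving out each library in turn gave 0 to 3397 higher and 0 to 3825 lower calls, the largest without VTP50469+WM119 replicate 1. Of the 49 genes, 48 were kept with RLE factors, 44 with at least 10 counts in every library, 36 with library size only and 41 with the robust fit. The 0 calls between WM119 and DMSO became 82 with DESeq2, 46 with only the groups compared, 8 with length and GC offsets and 171 with limma library weights, and 0 to 176 when a library was left out. The 0 interaction calls became 5 with DESeq2, and 0 to 3938 when a library was left out. The cause of these shifts was not tested.

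The replicate block left 2 higher and 0 lower calls. Deviations of same-numbered libraries from their group means correlated at -0.661 to 0.35 between groups. Some libraries also had a trend by transcript length, so these correlations cannot tell whether same-numbered libraries shared a batch. Signs were compared for the genes named in the text. Of those without a call, 8 changed sign. KAT5 had -0.16 and JADE1 0.14 with length and GC offsets, ING5 had -0.019 and MEAF6 -0.11 with library size only, and MEAF6 had -0.0116 without a count filter and -0.0106 with limma library weights. Over the fits that left out a library, the log2 fold change ran from -0.10 to 0.66 for ALCAM, -0.048 to 0.37 for KAT5, -0.16 to 0.00037 for BRD1, -1.58 to 0.014 for BRPF3, -1.13 to 0.013 for JADE3, -0.024 to 0.20 for ING5 and -0.11 to 0.11 for MEAF6. No called gene named here changed sign under any alternative run. With 2 libraries in each group, one of which stood apart, a gene that was not called cannot be taken as unchanged.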
